A study of Mus musculus with 9 samples.

Results

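The axon guidance genes are the ligands and receptors of 4 signalling systems: semaphorins with plexins and neuropilins, ephrins with Eph receptors, Slits with Robos, and netrins with Dcc, Neo1 and the Unc5 receptors. Members were taken by gene symbol, and the families were picked with earlier results of these data known. The rule was met by 72 annotated mouse symbols, and 66 of these were among the 15300 genes of the authors' tables. Of the 66, 63 code for proteins and 3 are RNAs annotated antisense to Plxna4 (Plxna4os1, Plxna4os2 and Plxna4os3), which share the prefix of the plexins. Efna3, Epha8, Epha10, Ntn3, Robo3 and Sema6b were not analysed here, and how the authors filtered low genes is not given in the sources used here, so counts below are of the 66 measured members.

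Guidance molecules are cell-surface or secreted proteins that tell a moving cell or a growing process which way to go, by attracting it or by making its leading edge collapse. They were found through their action on axons, and the same families also act on endothelial cells, on migrating cells and on the borders between tissues. Ephrins and most semaphorin classes are tethered to the membrane and signal to a neighbouring cell, while Slits, netrins and the Sema3 proteins are secreted. As a fetal gonad forms, germ cells and vessels take up their places and the testis forms cords.

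The samples were gonads of C57BL/6 mouse fetuses at E13.5, freed from the mesonephros, with 3 samples in each of 3 groups. XY-KO samples were testes of XY AMH-Cre; Sox9flox/flox fetuses, in which the AMH promoter drives Cre in Sertoli cells, the supporting cells of the testis, and Cre deletes Sox9 there once it is active. XX-WT samples were ovaries of XX Sox9flox/flox fetuses and XY-WT samples were testes of XY Sox9flox/flox fetuses, both labelled wildtype, so all 3 groups carry the floxed alleles. Whether each sample came from 1 fetus or several is not stated, so errors describe the spread between samples, which may be partly technical. The values used are the authors' limma results for group against group, and no per-sample values were used, so depth per sample is unknown and no sample could be left out. A group level below is derived from the authors' mean and fold changes with equal weight for the groups. It is given in CPM (the reads of a gene scaled to a fixed library total), or in CPM per kb of the longest transcript where genes are compared with each other. A change is a log2 ratio of the first group over the second with a standard error (SE) computed from it and the moderated t, and it passed the test at an adjusted p under 0.05 over all genes.

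The labels were checked first. Sox9 stood at 13.2 CPM in XY-KO, 4.02 CPM in XX-WT and 89.4 CPM in XY-WT, 6.78-fold lower in XY-KO than in XY-WT (95% interval 5.26 to 8.75). Of 10 pre-granulosa markers, 10 were higher in XX-WT than in XY-WT, and their summed level was 45.4 CPM in XY-KO, 430 CPM in XX-WT and 49.4 CPM in XY-WT. In XY-KO against XY-WT 1 of the 10 was called, Lgr5, which was lower (2.89 CPM against 16.2 CPM). The point estimates of the 10 there were above 0 for 6 and below 0 for 4. Sertoli markers summed to 524 CPM in XY-KO, 455 CPM in XX-WT and 865 CPM in XY-WT, with 10 of 14 lower in XY-KO than in XY-WT. In XX-WT 13 of the 14 were lower than in XY-WT and 1, Wt1, was higher. Most of the XX-WT sum was Wt1 (350 CPM) and Gata4 (82.7 CPM), which stood at 164 CPM and 137 CPM in XY-WT. The mitochondrial ribosomal RNA mt-Rnr2 took 361000 CPM in XY-KO, 369000 CPM in XX-WT and 375000 CPM in XY-WT.

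Guidance genes stood somewhat above the typical gene in CPM, which is not corrected for transcript length. The 63 protein-coding members had a median mean level of 3.71 in log2 CPM, against 3.19 for all genes, and 35 of them (55.6%) were at or above that overall median. Their longest transcripts had a median length of 5490 nt against 3280 nt for all genes, and a median GC content of 55.0% against 49.0%. Longer transcripts give more reads, so level and length cannot be told apart in this comparison. Per kb of transcript, the 5 highest members in XY-KO were Robo2 (32.9 CPM per kb), Sema6d (27.6 CPM per kb), Slit2 (23.8 CPM per kb), Neo1 (22.7 CPM per kb) and Robo1 (19.9 CPM per kb). In XX-WT the 5 highest were Sema6d (33.8 CPM per kb), Neo1 (32.2 CPM per kb), Epha7 (17.3 CPM per kb), Slit2 (15.7 CPM per kb) and Sema3a (13.9 CPM per kb). In XY-WT they were Robo2 (24.7 CPM per kb), Robo1 (24.5 CPM per kb), Neo1 (21.3 CPM per kb), Sema6d (19.2 CPM per kb) and Slit2 (17.9 CPM per kb). Both main Slit receptors were thus among the 5 highest members in the testes of either genotype and not in the ovary.

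**Figure D1:**
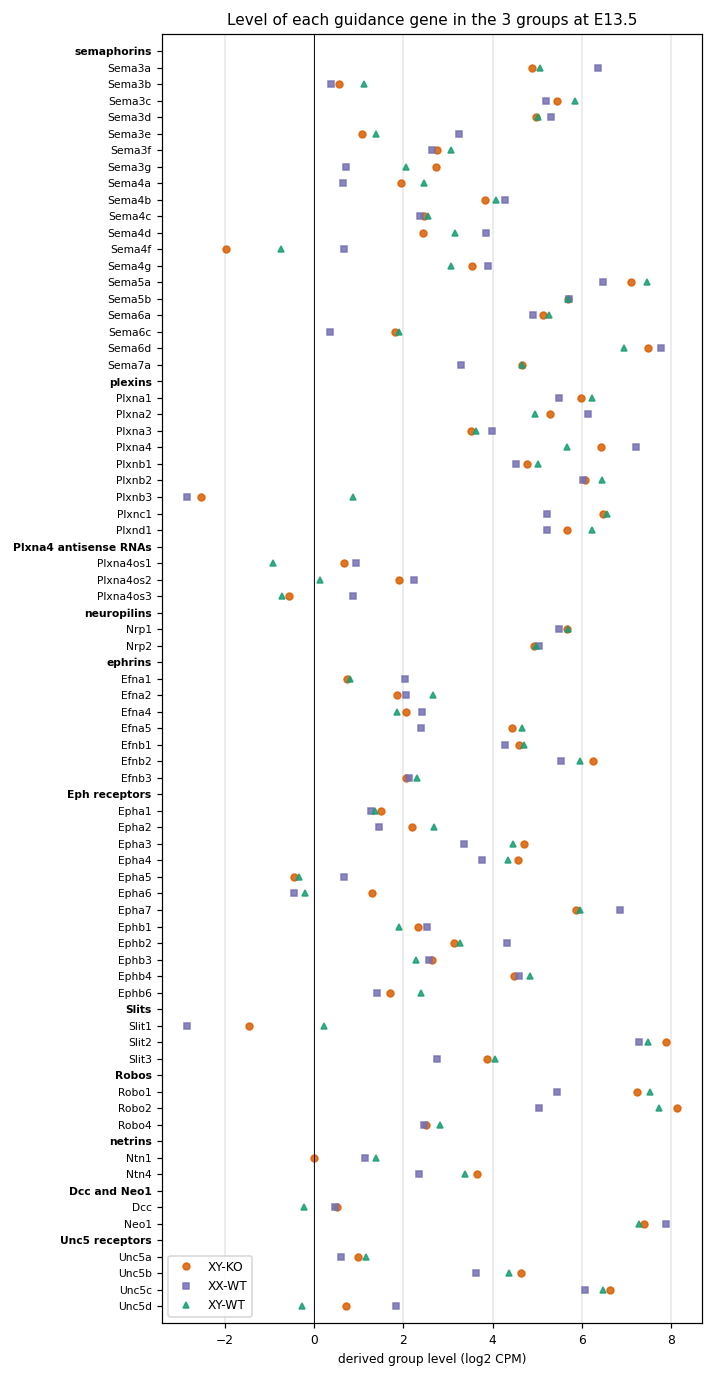
Derived level of each of the 66 measured guidance genes in log2 CPM (horizontal axis), grouped by family, with circles for XY-KO, squares for XX-WT and triangles for XY-WT. The squares of Robo1 and Robo2 lie far to the left of the other symbols, at 43.8 and 32.9 CPM, while the 3 symbols of Nrp1, Nrp2 and Sema5b nearly coincide.

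The comparison of XY-KO with XY-WT sets the testis with Sox9 deleted in Sertoli cells beside the control testis. Sox9 RNA was lower but not absent in XY-KO (13.2 CPM against 89.4 CPM). Per the genotypes only XY-KO carried AMH-Cre, so effects of Cre and of Sox9 loss cannot be told apart. Few guidance genes changed: Plxna4 and Sema6d rose and Plxnb3 fell, and the other 63 members did not pass. That is 4.55% of the members, where 2.27% of all genes passed, 0.699% higher and 1.57% lower, and 2.44% of genes at or above the median level. A count of 3 is too small to be read as a result about the families. At an unadjusted p under 0.05 there were 19 of 66 members (28.8%), against 18.9% of all genes. The median change was -0.09 over the members and -0.01 over all genes, and it turned to 0.01 and 0.04 with a trend on GC content and transcript length removed.

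Plxna4 encodes a plexin that acts with neuropilins as a receptor for Sema3a and binds Sema6 proteins directly. Its derived level was 85.4 CPM in XY-KO, 148 CPM in XX-WT and 50.5 CPM in XY-WT. The knockout testis lay between the ovary and the control testis and differed from each of them. The authors' deposited table put the change against XY-WT at 0.76 (SE 0.135, adjusted p 0.00607), which is 1.69-fold higher (95% interval 1.39 to 2.06). Against XX-WT, XY-KO stood at -0.79 per the authors' deposited table (SE 0.131, adjusted p 0.000452), and XX-WT against XY-WT stood at 1.55 (SE 0.132, adjusted p 4.96e-07).

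The antisense RNAs lie inside Plxna4 on the opposite strand (Plxna4 is on chromosome 6, 32144268 to 32588192, minus strand, GRCm38). Plxna4os1 was at 1.60 CPM in XY-KO, 1.91 CPM in XX-WT and 0.53 CPM in XY-WT. Plxna4os2 was at 3.72 CPM in XY-KO, 4.69 CPM in XX-WT and 1.10 CPM in XY-WT. Plxna4os3 was at 0.677 CPM in XY-KO, 1.82 CPM in XX-WT and 0.613 CPM in XY-WT. All 3 were higher in XX-WT than in XY-WT, and in XY-KO the first 2 had high point estimates that missed the threshold. The authors' deposited table put XY-KO against XY-WT at 1.59 (adjusted p 0.0766) for Plxna4os1, 1.76 (adjusted p 0.144) for Plxna4os2 and 0.14 (adjusted p 0.908) for Plxna4os3. Whether reads were counted by strand is not stated in the sources used here, so reads of Plxna4 introns and of these RNAs cannot be told apart.

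Sema6d, a transmembrane semaphorin that signals through Plxna1, was the most abundant semaphorin per kb in each group, at 178 CPM in XY-KO, 218 CPM in XX-WT and 124 CPM in XY-WT. The rise in XY-KO was 0.53 per the authors' deposited table (SE 0.123, adjusted p 0.0349), 1.44-fold (95% interval 1.20 to 1.73). The control ovary was also above the control testis: the authors' deposited table gave XX-WT against XY-WT as 0.82 (adjusted p 0.000128) and XY-KO against XX-WT as -0.29 (SE 0.122, adjusted p 0.12). The 95% interval of that last difference was -0.55 to -0.03.

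Plxnb3 encodes the plexin receptor of Sema5a and was a weakly expressed member, at 0.173 CPM in XY-KO, 0.140 CPM in XX-WT and 1.84 CPM in XY-WT. XY-KO and XX-WT were both near the low end of the members, and only XY-WT was above 1 CPM. The authors' deposited table gave -3.41 for XY-KO against XY-WT (SE 0.609, adjusted p 0.00633), -3.71 for XX-WT against XY-WT (SE 0.614, adjusted p 0.000352) and 0.31 for XY-KO against XX-WT (SE 0.793, adjusted p 0.844). At such levels a log2 change depends on the offset added before the logarithm, so no fold is given. Plxnb3 is known from glial cells, and the 9 measured of 15 neuron and Schwann cell markers summed to 28.3 CPM in XY-KO, 27.7 CPM in XX-WT and 43.1 CPM in XY-WT. Of these 9, 2 fell in XY-KO: the authors' deposited table gave -1.88 for Erbb3 (adjusted p 0.000355), a neuregulin receptor, and -3.93 for Sox10 (adjusted p 0.000278), a transcription factor of glia that is also made in the fetal testis. The lower sum in XY-KO rests on these 2, at 19.6 and 6.39 CPM in XY-WT and 5.34 and 0.419 CPM in XY-KO. Point estimates of the 9 there were above 0 for 3 and below 0 for 6. Between the controls 3 were lower in XX-WT and 1, Nefm, was higher (2.68, adjusted p 0.0217 per the authors' deposited table). The part of such cells in the fall of Plxnb3 was not tested, and in whole gonads fewer cells of a type and less RNA per cell cannot be told apart.

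Promoter windows of 300 bases (250 before and 50 after the RefSeq start, GRCm38.p6) are shown for 4 genes. These are Plxnb3, which fell in XY-KO, Sema6d, which rose, and Robo1 and Robo2, which were far lower in the ovary than in either testis. Capitals mark ACAAT, the core letters bound by SOX proteins, on either strand (ATTGT when it lies on the other strand). Windows were found for 53 of the 66 members. Sema6d has 2 windows and both are shown, while of the 3 windows of Robo2 only that at the start of the GENCODE gene is. The only window of Robo1 lies inside its GENCODE gene, which starts at 72308306, and not at that start. Plxna4 had no window.
Plxnb3, chrX:73756853-73757152, plus strand: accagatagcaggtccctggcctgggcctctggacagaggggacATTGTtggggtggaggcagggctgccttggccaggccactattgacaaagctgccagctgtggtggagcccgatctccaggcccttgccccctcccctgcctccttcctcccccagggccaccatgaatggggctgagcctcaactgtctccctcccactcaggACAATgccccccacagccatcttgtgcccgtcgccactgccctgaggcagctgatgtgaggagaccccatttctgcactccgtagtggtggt
Sema6d, chr2:124089719-124090018, plus strand: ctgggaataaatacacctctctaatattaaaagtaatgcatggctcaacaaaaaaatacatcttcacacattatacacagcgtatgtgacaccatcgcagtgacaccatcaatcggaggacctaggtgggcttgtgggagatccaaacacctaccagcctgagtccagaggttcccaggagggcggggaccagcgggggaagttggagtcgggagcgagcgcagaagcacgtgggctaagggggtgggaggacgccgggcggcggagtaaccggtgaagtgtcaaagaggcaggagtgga
Sema6d, chr2:124653331-124653630, plus strand: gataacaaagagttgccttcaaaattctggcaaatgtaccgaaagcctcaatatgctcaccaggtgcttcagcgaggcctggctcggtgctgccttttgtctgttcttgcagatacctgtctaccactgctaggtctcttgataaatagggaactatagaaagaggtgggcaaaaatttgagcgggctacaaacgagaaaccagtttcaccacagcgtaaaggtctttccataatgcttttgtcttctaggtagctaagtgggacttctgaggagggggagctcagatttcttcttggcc
Robo1, chr16:72662899-72663198, plus strand: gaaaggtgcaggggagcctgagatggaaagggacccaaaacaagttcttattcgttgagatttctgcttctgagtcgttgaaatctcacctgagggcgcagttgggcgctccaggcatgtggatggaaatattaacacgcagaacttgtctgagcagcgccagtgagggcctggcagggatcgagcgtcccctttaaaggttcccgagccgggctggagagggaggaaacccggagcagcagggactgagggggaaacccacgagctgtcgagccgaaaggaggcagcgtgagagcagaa
Robo2, chr16:74411776-74412075, minus strand: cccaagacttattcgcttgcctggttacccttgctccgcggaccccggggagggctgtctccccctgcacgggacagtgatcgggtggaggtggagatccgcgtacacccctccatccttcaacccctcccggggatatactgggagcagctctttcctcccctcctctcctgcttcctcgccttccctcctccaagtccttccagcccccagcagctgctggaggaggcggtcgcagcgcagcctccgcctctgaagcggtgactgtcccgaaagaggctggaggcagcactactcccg

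The Plxnb3 window held ACAAT 2 times, starting 206 bases before the start on the opposite strand and 42 bases before it on the same strand. No match was found in the windows shown for Sema6d, Robo1 and Robo2, which says only that these letters are not in them. Over all 32851 promoter windows, 31.0% held ACAAT, and 14 of the 75 windows of symbols that meet the rule did (18.7%). The longer forms AACAAT and ACAATGG, which contain ACAAT, were in 10.7% and 3.66% of all windows and in 3 and 2 of the 75. AGGTCA, the core letters of nuclear receptor sites, was in 16.3% of all windows and in 10 of the 75. A match is a description of letters and not a bound site.

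**Figure D2:**
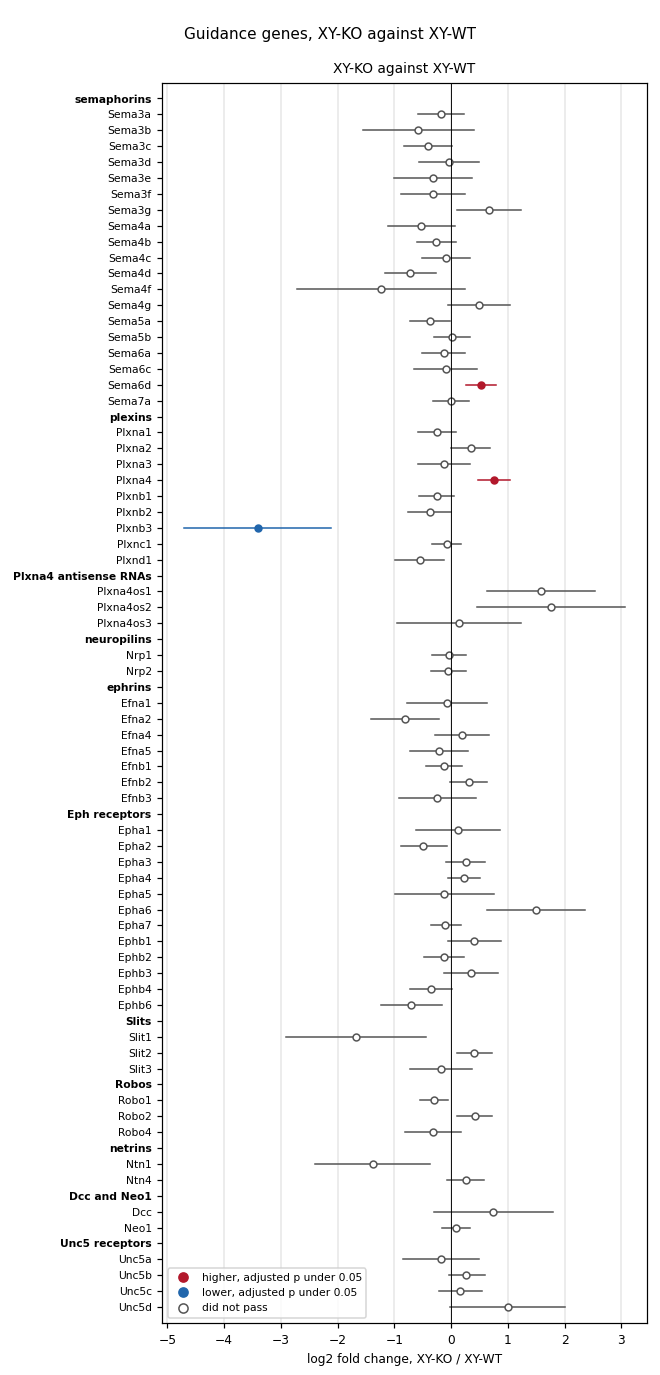
Log2 change of each guidance gene in XY-KO against XY-WT (horizontal axis) with its 95% interval, grouped by family; filled points passed at an adjusted p under 0.05 and open points did not. The filled points are Sema6d and Plxna4 to the right of 0 and Plxnb3 at -3.41, and most open points lie within 0.5 of 0.

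Members that did not pass included some with narrow intervals around 0. Nrp1 and Nrp2, the neuropilins that bind Sema3 proteins, stood at -0.04 and -0.05 per the authors' deposited table, with 95% intervals of -0.34 to 0.26 and -0.36 to 0.27. Sema5b was at 0.01 and Plxnc1 at -0.08 per the authors' deposited table, with intervals of -0.30 to 0.33 and -0.33 to 0.18. The smallest adjusted p of each remaining family per the authors' deposited table belonged to Efna2 (-0.82, adjusted p 0.14), Epha6 (1.5, adjusted p 0.067), Slit2 (0.41, adjusted p 0.139), Robo2 (0.42, adjusted p 0.141), Ntn1 (-1.38, adjusted p 0.141), Dcc (0.74, adjusted p 0.44) and Unc5d (1.0, adjusted p 0.273). Sema4d, the membrane semaphorin that binds Plxnb1, was at 5.42 CPM in XY-KO, 14.4 CPM in XX-WT and 8.94 CPM in XY-WT, a change of -0.72 per the authors' deposited table that did not pass (adjusted p 0.0892).

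The comparison of XX-WT with XY-WT sets the ovary beside the testis where Sox9 is intact. Guidance genes differed widely between ovary and testis: 17 members were higher and 23 lower in XX-WT, 60.6% of the 66, where 23.3% of all genes passed, 10.9% higher and 12.4% lower. Among the 35 members at or above the median level the count was 23 (65.7%), where 24.2% of all genes at that level passed. Of the 63 protein-coding members, without the antisense RNAs, 14 were higher and 23 lower (58.7%). A difference of at least 2-fold was called for 26 of the 66 members, and for 1836 of all 15300 genes. The median change was -0.25 over the members and 0.00 over all genes, against -0.17 and 0.04 once the trend on GC content and length was removed. Neuropilins were the only family with no member called by limma, with 0 of 2 also at an unadjusted p under 0.05.

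**Figure D3:**
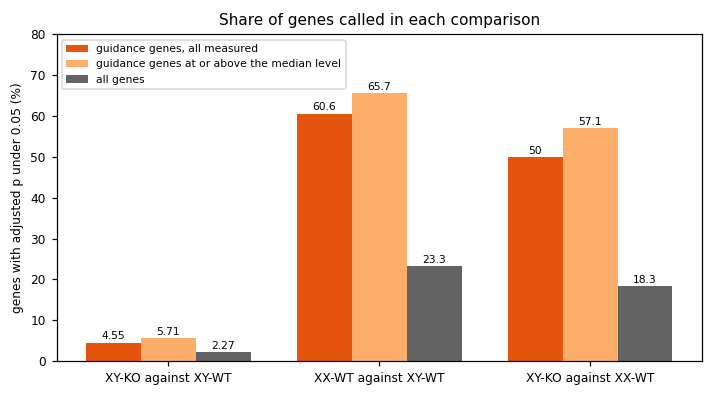
Share of genes with an adjusted p under 0.05 in each comparison (vertical axis, percent) for the 66 measured guidance genes, the 35 of them at or above the median level, and all 15300 genes. The guidance genes stand at 60.6% in XX-WT against XY-WT and 50.0% in XY-KO against XX-WT, beside 23.3% and 18.3% of all genes, and at 4.55% in XY-KO against XY-WT beside 2.27%.

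Robo2 had the largest sex difference of the 35 members at or above the median level. Slits are secreted repellents and Robo1 and Robo2 are their main receptors. Robo2 was at 283 CPM in XY-KO, 32.9 CPM in XX-WT and 212 CPM in XY-WT. Robo1 was at 151 CPM in XY-KO, 43.8 CPM in XX-WT and 185 CPM in XY-WT. Both receptors were low in the ovary alone. Robo2 was 6.44-fold lower in XX-WT than in XY-WT (95% interval 5.16 to 8.05), at -2.69 per the authors' deposited table (SE 0.151, adjusted p 6.12e-09). Robo1 was 4.23-fold lower (95% interval 3.56 to 5.02), at -2.08 per the authors' deposited table (SE 0.116, adjusted p 6.08e-09). In XY-KO the same 2 genes were 8.60-fold (95% interval 6.86 to 10.8) and 3.44-fold (95% interval 2.89 to 4.09) higher than in XX-WT. Their changes against XY-WT had intervals of 0.11 to 0.72 for Robo2 and -0.54 to -0.06 for Robo1, neither past the adjusted test (adjusted p 0.141 and 0.174 per the authors' deposited table).

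Of their ligands, Slit1 and Slit3 were also lower in the ovary and Slit2 did not pass. Slit2, the most abundant Slit per kb in each group, was at 237 CPM in XY-KO, 157 CPM in XX-WT and 178 CPM in XY-WT, and did not differ past the test between the control gonads (-0.18, adjusted p 0.379 per the authors' deposited table). It was higher in XY-KO than in XX-WT (0.60, adjusted p 0.00753 per the authors' deposited table). Slit3 was at 14.8 CPM in XY-KO, 6.73 CPM in XX-WT and 16.7 CPM in XY-WT, lower in XX-WT by the authors' deposited table (-1.31, SE 0.283, adjusted p 0.00319). Slit1 was scarce, at 0.365 CPM in XY-KO, 0.139 CPM in XX-WT and 1.17 CPM in XY-WT, and also lower in XX-WT (-3.07, adjusted p 0.00462 per the authors' deposited table). Robo4, the endothelial member, was at 5.67 CPM in XY-KO, 5.53 CPM in XX-WT and 7.08 CPM in XY-WT and passed in no comparison.

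Markers of other cell types also differed between the sexes. The 10 interstitial markers summed to 1040 CPM in XY-KO, 572 CPM in XX-WT and 1080 CPM in XY-WT, with 7 lower and 1 higher in XX-WT than in XY-WT, and 2 called in XY-KO against XY-WT. The 7 measured of 8 fetal Leydig cell markers summed to 693 CPM in XY-KO, 47.9 CPM in XX-WT and 718 CPM in XY-WT, all 7 lower in XX-WT, and 0 called by limma in XY-KO against XY-WT (1 at an unadjusted p under 0.05). The 15 endothelial markers summed to 223 CPM in XY-KO, 206 CPM in XX-WT and 233 CPM in XY-WT, with 1 higher and 4 lower in XX-WT. Other lists were higher in the ovary. The 6 measured of 7 markers of mesonephric epithelium summed to 93.7 CPM in XY-KO, 212 CPM in XX-WT and 72.6 CPM in XY-WT. Of these 6, 5 were higher and 1 was lower in XX-WT than in XY-WT. Emx2 made up most of each sum, at 81.6 CPM in XY-KO, 190 CPM in XX-WT and 58.0 CPM in XY-WT. The 9 measured of 11 germ cell markers summed to 333 CPM in XY-KO, 623 CPM in XX-WT and 395 CPM in XY-WT, with 7 higher in XX-WT. The part of these cells in the guidance differences, in either direction, was not tested.

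Among the secreted Sema3 ligands, the sexes differed in both directions. Sema3a, the repellent that acts through Nrp1 and class A plexins, was at 29.6 CPM in XY-KO, 82.2 CPM in XX-WT and 33.6 CPM in XY-WT. Sema3e, which binds Plxnd1 without a neuropilin, was at 2.10 CPM in XY-KO, 9.45 CPM in XX-WT and 2.61 CPM in XY-WT. Sema3g, a ligand of Nrp2, ran the other way, at 6.63 CPM in XY-KO, 1.64 CPM in XX-WT and 4.18 CPM in XY-WT. The first 2 were thus high in the ovary and the third in the testes. XX-WT exceeded XY-WT by 2.45-fold for Sema3a (95% interval 1.88 to 3.19) and 3.62-fold for Sema3e (95% interval 2.48 to 5.27), at 1.29 (adjusted p 7.12e-05) and 1.85 (adjusted p 6.27e-05) per the authors' deposited table. Sema3g was 2.54-fold lower in XX-WT (95% interval 1.53 to 4.21), at -1.35 (adjusted p 0.00947) per the authors' deposited table. Sema3c was also lower in XX-WT (-0.65, adjusted p 0.0261 per the authors' deposited table), with 43.3 CPM in XY-KO, 36.7 CPM in XX-WT and 57.4 CPM in XY-WT. Sema3b, Sema3d and Sema3f did not pass, at -0.75, 0.29 and -0.43 per the authors' deposited table.

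The class A plexins, which transmit Sema3 signals, split as well. Plxna2 was at 39.2 CPM in XY-KO, 70.9 CPM in XX-WT and 30.9 CPM in XY-WT, 2.30-fold higher in XX-WT than in XY-WT (95% interval 1.82 to 2.90; adjusted p 3.97e-05 per the authors' deposited table). Plxna4 was 2.92-fold higher in XX-WT (95% interval 2.41 to 3.55). Plxna1 was at 63.1 CPM in XY-KO, 44.5 CPM in XX-WT and 75.1 CPM in XY-WT, 1.69-fold lower in XX-WT (95% interval 1.34 to 2.12; adjusted p 0.00222 per the authors' deposited table). Plxna3 did not pass, with 11.4 CPM in XY-KO, 15.8 CPM in XX-WT and 12.4 CPM in XY-WT. Plxnd1, the Sema3e receptor of endothelial cells, was at 50.7 CPM in XY-KO, 37.0 CPM in XX-WT and 74.5 CPM in XY-WT, 2.01-fold lower in XX-WT (95% interval 1.49 to 2.71), opposite in sign to its ligand. Plxnb1 was lower in XX-WT (-0.51, adjusted p 0.0173 per the authors' deposited table) and Plxnb2 did not pass (-0.44, adjusted p 0.0796 per the authors' deposited table).

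Sema7a and Plxnc1 are a ligand and its receptor, and both were lower in the ovary by similar amounts. Sema7a, a semaphorin held by a lipid anchor, was at 25.2 CPM in XY-KO, 9.78 CPM in XX-WT and 25.3 CPM in XY-WT. Plxnc1 was at 89.2 CPM in XY-KO, 37.4 CPM in XX-WT and 94.0 CPM in XY-WT. In XX-WT they were 2.59-fold (95% interval 2.03 to 3.30) and 2.51-fold (95% interval 2.10 to 3.01) lower than in XY-WT, at -1.37 (adjusted p 1.72e-05) and -1.33 (adjusted p 1.07e-06) per the authors' deposited table. In XY-KO both stayed within 0.33 of the XY-WT level on the log2 scale at the 95% limit, with -0.01 (interval -0.32 to 0.31) for Sema7a and -0.08 for Plxnc1.

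The membrane semaphorins of the Sema4, Sema5 and Sema6 classes gave 3, 1 and 2 calls between the control gonads. These were of 6, 2 and 3 measured genes, where 23.3% of all genes passed. Sema4a was at 3.83 CPM in XY-KO, 1.56 CPM in XX-WT and 5.53 CPM in XY-WT, and Sema6c at 3.51 CPM in XY-KO, 1.29 CPM in XX-WT and 3.74 CPM in XY-WT. Both were lower in XX-WT than in XY-WT, 3.54-fold (95% interval 2.17 to 5.79) and 2.91-fold (95% interval 1.79 to 4.72), with an adjusted p of 0.000844 and 0.00276 per the authors' deposited table. Sema5a, the ligand of Plxnb3, was at 137 CPM in XY-KO, 88.5 CPM in XX-WT and 177 CPM in XY-WT, 2.0-fold lower in XX-WT than in XY-WT (95% interval 1.57 to 2.55). Sema4d (0.69) and Sema4g (0.84) were higher in XX-WT per the authors' deposited table. Sema4f, at 0.255 CPM in XY-KO, 1.58 CPM in XX-WT and 0.603 CPM in XY-WT, missed the test between the controls (adjusted p 0.0544 per the authors' deposited table). Sema4b, Sema4c, Sema5b and Sema6a did not pass, with values of -0.36 to 0.20 per the authors' deposited table.

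Among ephrins, the ligands of Eph receptors, Efna5 differed most. It was at 21.6 CPM in XY-KO, 5.25 CPM in XX-WT and 25.1 CPM in XY-WT, 4.77-fold lower in XX-WT than in XY-WT (95% interval 3.13 to 7.28; -2.25, adjusted p 2.95e-05 per the authors' deposited table). Efna1 ran the other way, at 1.66 CPM in XY-KO, 4.13 CPM in XX-WT and 1.75 CPM in XY-WT, 2.36-fold higher in XX-WT (95% interval 1.56 to 3.57). Efnb1 was slightly lower in XX-WT (-0.44, adjusted p 0.0439 per the authors' deposited table). Efnb2, an ephrin of arteries, was at 76.4 CPM in XY-KO, 46.1 CPM in XX-WT and 61.7 CPM in XY-WT, and passed in XY-KO against XX-WT (0.73, adjusted p 0.00332 per the authors' deposited table) but not between the controls. Efna2, Efna4 and Efnb3 passed in no comparison.

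Of the 12 Eph receptors, tyrosine kinases that bind ephrins on neighbouring cells, 4 were higher and 4 lower in XX-WT than in XY-WT. Of all genes, 10.9% were called higher and 12.4% lower. Epha3, a receptor with high affinity for Efna5, was at 26.1 CPM in XY-KO, 10.2 CPM in XX-WT and 21.8 CPM in XY-WT, 2.13-fold lower in XX-WT (95% interval 1.64 to 2.77; adjusted p 0.000296 per the authors' deposited table). Epha2 (-1.23), Epha4 (-0.59) and Ephb6 (-0.99) were lower as well per the authors' deposited table. Epha7, a receptor of A-type ephrins, was at 58.2 CPM in XY-KO, 116 CPM in XX-WT and 62.2 CPM in XY-WT, 1.87-fold higher in XX-WT (95% interval 1.57 to 2.24). Ephb2 was at 8.77 CPM in XY-KO, 20.0 CPM in XX-WT and 9.61 CPM in XY-WT, 2.09-fold higher in XX-WT (95% interval 1.67 to 2.60). Ephb1 (0.63, adjusted p 0.0419) and Epha5 (1.02, adjusted p 0.0492) were higher per the authors' deposited table, Epha5 at 0.734 CPM in XY-KO, 1.61 CPM in XX-WT and 0.795 CPM in XY-WT. Its call ended when the median change of all genes was subtracted (adjusted p 0.0502). Epha1, Epha6, Ephb3 and Ephb4 did not pass between the controls.

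Between the control gonads, 1 of 2 netrins, 1 of the pair Dcc and Neo1, and 2 of 4 Unc5 receptors passed. Of all genes 23.3% passed, and counts this small are not read as a result about these families. Ntn4, a netrin of basement membranes, was at 12.6 CPM in XY-KO, 5.14 CPM in XX-WT and 10.5 CPM in XY-WT, 2.05-fold lower in XX-WT than in XY-WT (95% interval 1.58 to 2.65; adjusted p 0.000403 per the authors' deposited table). Ntn1, the classical attractant, was at 1.01 CPM in XY-KO, 2.21 CPM in XX-WT and 2.63 CPM in XY-WT and passed in no comparison. Neo1, a receptor of netrins and of RGM proteins, was at 167 CPM in XY-KO, 237 CPM in XX-WT and 157 CPM in XY-WT, 1.51-fold higher in XX-WT (95% interval 1.27 to 1.80), while its relative Dcc stayed at or below 1.42 CPM in each group. The repulsive Unc5 receptors split: Unc5b was lower in XX-WT (-0.75, adjusted p 0.00273 per the authors' deposited table) and Unc5d higher. Unc5d was at 1.64 CPM in XY-KO, 3.55 CPM in XX-WT and 0.821 CPM in XY-WT, 4.33-fold higher in XX-WT than in XY-WT (95% interval 2.27 to 8.24). Unc5a and Unc5c did not pass between the controls, at -0.54 and -0.41 per the authors' deposited table.

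XY-KO against XX-WT sets the knockout testis beside the ovary. This comparison shares its samples with the other pairs, so its values are given beside theirs and are not independent of them. XY-KO was higher than XX-WT for 20 members and lower for 13, 50.0% of the 66, where 18.3% of all genes passed, 9.16% higher and 9.11% lower. At or above the median level there were 20 of 35 members (57.1%), where 18.3% of genes passed. Of the 63 protein-coding members, 20 were higher and 12 lower in XY-KO (50.8%). The median change was 0.10 over the members.

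**Figure D4:**
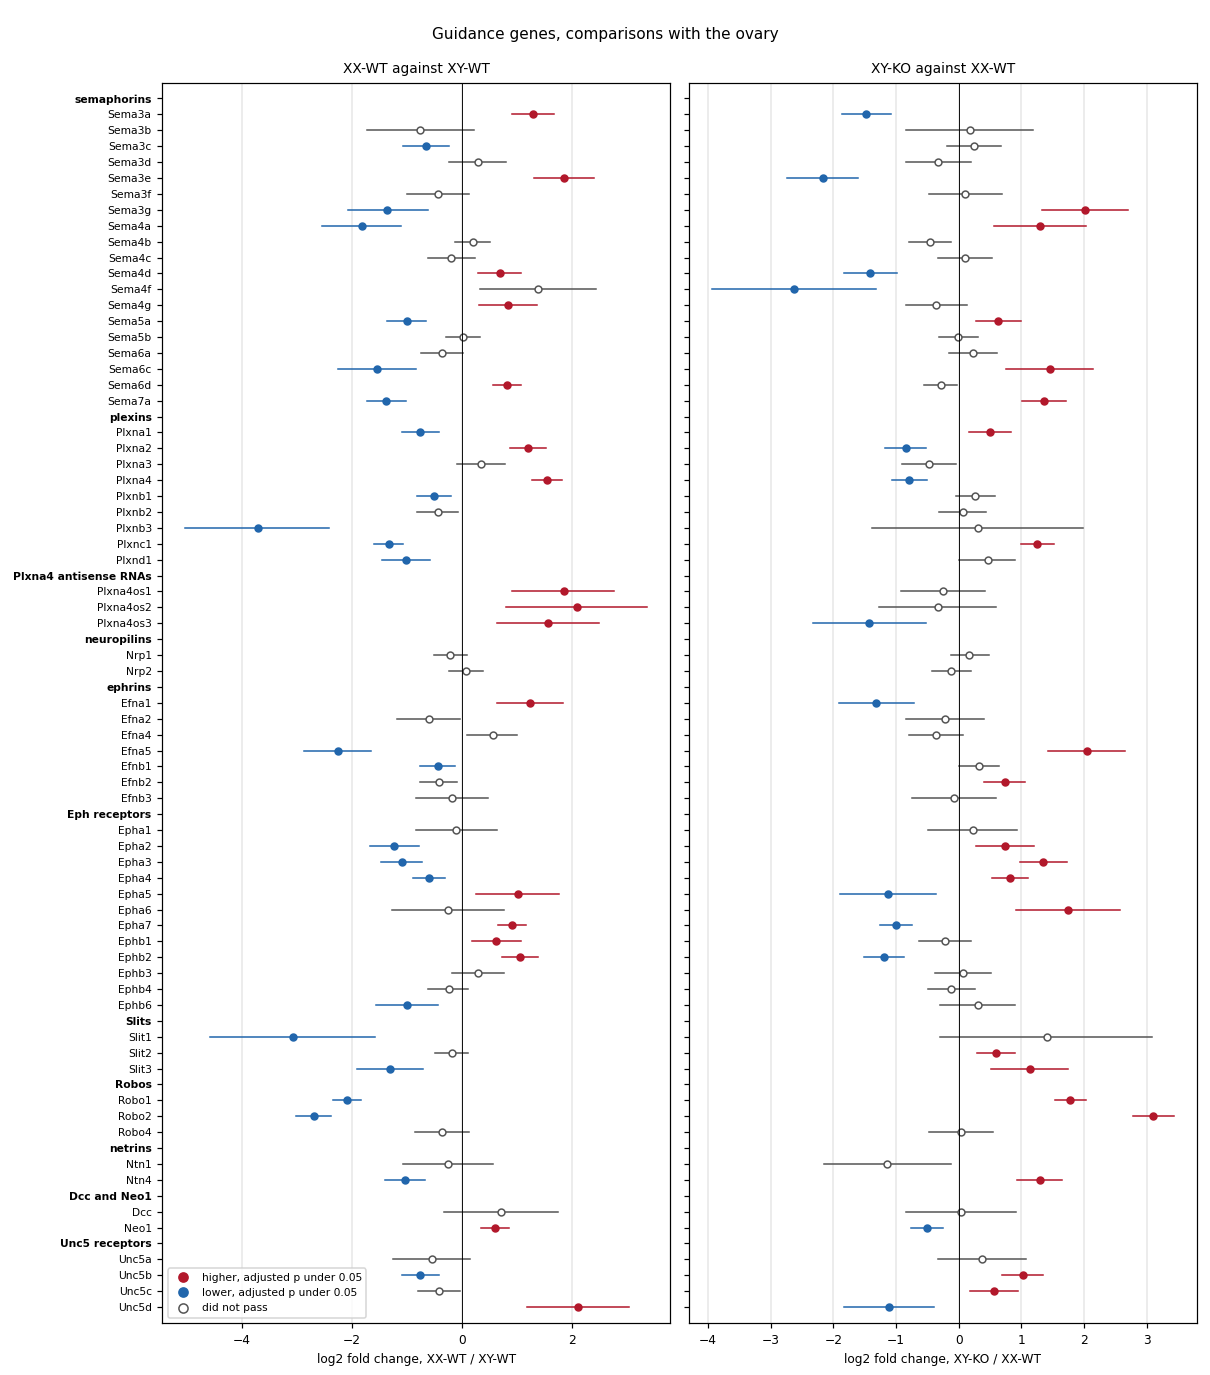
Log2 change of each guidance gene in XX-WT against XY-WT (left) and in XY-KO against XX-WT (right), with 95% intervals and families as row groups; filled points passed at an adjusted p under 0.05. Robo2 is at -2.69 on the left and 3.10 on the right, and Sema3e at 1.85 on the left and -2.17 on the right.

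Besides Robo2 and Robo1, the largest excesses of XY-KO over XX-WT per the authors' deposited table belonged to Efna5 (2.04, SE 0.289, adjusted p 0.000112), Sema3g (2.01, SE 0.323, adjusted p 0.00033), Epha6 (1.75, SE 0.395, adjusted p 0.00509), Sema6c (1.45), Sema7a (1.36), Epha3 (1.35), Sema4a (1.29) and Ntn4 (1.29). Epha6 differed from these in its levels: it was at 2.45 CPM in XY-KO, 0.731 CPM in XX-WT and 0.868 CPM in XY-WT, so that the 2 control gonads were both low. The largest deficits per the authors' deposited table were those of Sema4f (-2.63, adjusted p 0.00653), Sema3e (-2.17, adjusted p 2.69e-05), Sema3a (-1.48, adjusted p 3.03e-05), Plxna4os3 (-1.43, adjusted p 0.028), Sema4d (-1.41, adjusted p 9.74e-05), Efna1 (-1.32), Ephb2 (-1.19), Epha5 (-1.13), Unc5d (-1.12) and Epha7 (-1.0). For Plxna4os3 the call ended once the trend with GC content and transcript length was removed (adjusted p 0.0526). Unc5c was also higher in XY-KO (0.56, adjusted p 0.0405 per the authors' deposited table), and missed the test with that trend removed (adjusted p 0.0597).

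Genes that carry guidance signals inside the cell were taken as a list of their own. Of 33 measured of 36 such genes, 0 were called by limma in XY-KO against XY-WT (4 at an unadjusted p under 0.05), where 2.27% of all genes passed. In XX-WT against XY-WT 7 were higher and 4 lower, 33.3% of the 33 beside 23.3% of all genes. In XY-KO against XX-WT 7 were higher and 3 lower, 30.3% beside 18.3%. Mical2, an oxidase that acts on actin, was at 139 CPM in XY-KO, 30.4 CPM in XX-WT and 118 CPM in XY-WT. It was 3.89-fold lower in XX-WT than in XY-WT (95% interval 3.19 to 4.74). Ablim3, an actin-binding protein, was at 1.26 CPM in XY-KO, 10.5 CPM in XX-WT and 1.09 CPM in XY-WT, 9.66-fold higher in XX-WT (95% interval 6.02 to 15.5). The kinase Fyn (-0.87) and the collapsin response mediator Dpysl5 (-1.48) were lower and the kinase Pak1 (0.93) higher in XX-WT per the authors' deposited table. The smallest adjusted p in XY-KO against XY-WT per the authors' deposited table belonged to Srgap3, a GTPase-activating protein that binds Robo (0.48, adjusted p 0.0565), Dpysl5 (-0.73, adjusted p 0.0744), Vav2 (0.48, adjusted p 0.111), Vasp (-0.44, adjusted p 0.21) and Mical2 (0.24, adjusted p 0.331).

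Other guidance cues and partners had 33 of 41 genes measured. In XY-KO against XY-WT 0 were higher and 1 was lower, 3.03% beside 2.27% of all genes. In XX-WT against XY-WT 3 were higher and 9 lower, 36.4% beside 23.3%, and 4 were higher and 6 lower with the GC and length trend removed. In XY-KO against XX-WT 4 were higher and 3 lower, 21.2% beside 18.3%. The first and last of these shares are near those of all genes. Gpc1, a heparan sulphate proteoglycan that binds Slits, was the gene lower in XY-KO, at 13.6 CPM in XY-KO, 7.44 CPM in XX-WT and 23.3 CPM in XY-WT (-0.78, SE 0.193, adjusted p 0.0476 per the authors' deposited table). That call ended when the median change of all genes was subtracted (adjusted p 0.0503), and the change was -0.50 once a trend with GC and length was taken out (adjusted p 0.234). Cxcl12, the chemokine that guides germ cells to the gonad, was at 172 CPM in XY-KO, 26.8 CPM in XX-WT and 164 CPM in XY-WT, 6.13-fold lower in XX-WT than in XY-WT (95% interval 4.47 to 8.41). Hgf, the ligand of the Met receptor that plexins can join, was 3.21-fold lower in XX-WT (95% interval 2.28 to 4.53). Flrt2, a ligand of Unc5d, was at 69.1 CPM in XY-KO, 157 CPM in XX-WT and 66.1 CPM in XY-WT, 2.38-fold higher in XX-WT (95% interval 1.91 to 2.97), in the same direction as Unc5d. Sdc3 (another heparan sulphate proteoglycan), Ptprf (a receptor phosphatase), Ntng1 (a membrane-bound netrin relative) and Cd72 (a receptor of Sema4d) had values of -0.65 to -0.51 in XY-KO against XY-WT per the authors' deposited table and did not pass.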

How the data were processed

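RNA sequencing was done on 9 gonad samples (3 groups of 3); per the labels, RNA was amplified by the SPIA method and read as pairs of 150 nt. Per the submitters' processing notes, the tools were limma 3.24.0, HTSeq 0.6.1p1, TopHat2 2.0.8 and Trimmomatic 0.30, with GRCm38 as the genome build. The 3 deposited tables hold, per the file headers, the authors' log2 fold change and mean log2 expression (CPM scale), limma scores (moderated t and log-odds) and limma p-values, raw and Benjamini-Hochberg adjusted, for 15300 genes. Replicate weights and gene filters are not given in the sources used here.

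From these, SE was taken as log2 fold change over t, with 95% intervals at 15.27 degrees of freedom, which returned the deposited p. The 3 fold changes added up within 0.005. No fold is given where a group level was under -2 in log2 CPM. Symbols, positions and transcript lengths came from GENCODE M21 on GRCm38 (15192 of 15300 genes matched) and promoters from RefSeq on GRCm38.p6. The calculations, in statsmodels 0.14.6, scipy 1.17.1, pandas 2.3.3 and numpy 2.4.6 under Python 3.11.15, were tested on simulated data.

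The members and gene lists were chosen with earlier results of these data known. Named were all members called in XY-KO against XY-WT, the 10 largest called rises and falls in each other comparison, the highest and the smallest-p member of each family, and the 5 smallest-p genes of each partner list; other members are given to account for the families. The result of 1 neuron and Schwann cell marker is not reported here, though the summed level includes it. Alternatives were an adjusted p under 0.01, a 2-fold limit, genes at or above the median level of 3.19, adjustment over the 3 comparisons together, Bonferroni adjustment, subtraction of the median change, and removal of a trend with GC content and transcript length (robust polynomials of degree 3).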

Additional observations from a re-analysis of the deposited data

How the results depend on the processing

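No direction of a called result turned under any alternative run. In XY-KO against XY-WT, members called numbered 3 as reported, 1 with a 2-fold limit, 6 with the adjustment over the 3 comparisons together and 0 by Bonferroni adjustment. Families with a called member numbered 2 as reported, 1 at an adjusted p under 0.01, 1 with the 2-fold limit, 4 over the comparisons together and 0 by Bonferroni. Plxna4, Sema6d and Plxnb3 were called with the GC and length trend removed, at 0.73, 0.53 and -3.25. Signal transducers called there went to 3 over the comparisons together and 1 with the trend removed, from 0 as reported. Other cues and partners, 1 as reported, were 0 at an adjusted p under 0.01, 0 with the 2-fold limit, 0 by Bonferroni, 0 less the median change, 0 with the trend removed and 3 over the comparisons together. In XX-WT against XY-WT, members called were 40 as reported, 26 with the 2-fold limit, 23 at or above the median level, where fewer genes are tested, and 11 by Bonferroni. Transducers were 11 as reported, 4 with the 2-fold limit and 3 by Bonferroni. Partners were 12 as reported, 6 and 4 under the same limits, and families with a call were 10 as reported and 5 by Bonferroni. In XY-KO against XX-WT, members called were 33 as reported, 20 at or above the median level and 11 by Bonferroni. Families with a call were 10 as reported and 5 by Bonferroni. Transducers, 10 as reported, were 6 at an adjusted p under 0.01, 4 with the 2-fold limit, 6 at or above the median level and 2 by Bonferroni, and partners, 7 as reported, were 3 by Bonferroni. Adjustment over the 3 comparisons together sets a common limit. It eases the limit for XY-KO against XY-WT, where 347 genes passed as reported, beside 3560 and 2796 in the comparisons with the ovary. Beyond this and what the stricter limits and smaller sets do by construction, the cause was not tested. No paired analysis was possible because the columns hold group comparisons and carry no replicate numbers; for the same reason no replicate could be left out, and depth is unknown.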

Other observations

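Some guidance genes follow one another in the order of the members along a chromosome (GRCm38), at distances that vary widely. On chromosome 5, Sema3d (12383385 to 12588948), Sema3a (13125414 to 13602565), Sema3e (14025276 to 14256689) and Sema3c (17574281 to 17730268) follow each other on the plus strand. Their changes in XX-WT against XY-WT were 0.29, 1.29, 1.85 and -0.65 per the authors' deposited table, so that the inner pair was higher and Sema3c lower in the ovary, while Sema3d did not pass. On chromosome 16, Epha6 (59653483 to 60605531), Epha3 (63543534 to 63864175), Robo1 (72308306 to 73046095) and Robo2 (73891839 to 74411825) lie in this order. Of these, Epha3, Robo1 and Robo2 were lower in XX-WT than in XY-WT, and Epha6 was not called there (-0.25, adjusted p 0.75 per the authors' deposited table). On chromosome 3, the ephrin genes Efna1 (89271733 to 89281142) and Efna4 (89333390 to 89338028) had changes of 1.24 and 0.56 in that comparison per the authors' deposited table, of which Efna1 passed. Sema3b (107597674 to 107609229) and Sema3f (107681500 to 107710475) lie near each other on chromosome 9. Neither passed in that comparison, at -0.75 and -0.43 per the authors' deposited table.

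Of the 3 members on the X chromosome, Plxnb3 and Efnb1 were lower in XX-WT than in XY-WT and Plxna3 missed the threshold. The authors' deposited table gave -3.71 for Plxnb3 (adjusted p 0.000352), -0.44 for Efnb1 (adjusted p 0.0439) and 0.35 for Plxna3 (adjusted p 0.241).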
